A study of Rattus norvegicus with 4 samples.

Results

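The unfolded protein response genes were a set of 35 rat genes. Most sense unfolded protein in the endoplasmic reticulum (ER), relay that signal to the nucleus, or fold, retain and degrade proteins in the ER. Another 5 are targets of ATF4 and CHOP, transcription factors of the response. Members were taken by the gene name printed for each non-control probe, with older rat names accepted, and 45 of the 45598 probes on the array carried one. All 35 were found, among 18854 genes with a symbol. The probe for Derl2 carried a locus name that the RefSeq gene table ties to that gene, and the member named Ero1l on the array is Ero1a in RefSeq.

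NR8383 is a macrophage line established from the lung lavage of a normal rat. The 4 samples formed 1 group, the submerged control, taken after 20 passages and grown in DMEM with 15% heat-inactivated fetal bovine serum, 2 mM L-glutamine, antibiotics and amphotericin B, with 50% of the cells floating and the rest adherent. The design text calls the samples biological replicates and gives 4 h of submerged incubation, whereas the treatment protocol gives 48 h after seeding, and which of these describes the cells was not settled. No other condition was analysed here, so the question open to these data was which genes of the response had signal in resting cells and how far each differed between replicates. Nothing in the labels states that the 4 samples came from separate cultures, so the spread between them may be partly technical.

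When unfolded protein builds up in the ER, 3 membrane sensors respond. Ern1 (IRE1) splices the message of Xbp1 into that of an active transcription factor, Eif2ak3 (PERK) phosphorylates eIF2α, which lowers general translation while Atf4 translation rises, and Atf6 is cut in the Golgi to free a transcription factor. The products induce chaperones, oxidoreductases and degradation factors, and prolonged signalling through Atf4 and Ddit3 (CHOP) induces genes tied to amino acid supply, redox balance and cell death. Macrophages secrete much protein and use Xbp1 in inflammatory signalling as well. Splicing of Xbp1, cleavage of Atf6 and phosphorylation of eIF2α were not measured here: each value is an RNA signal from a probe.

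From each sample 100 ng of total RNA, of an integrity number above 7.5, was made into Cy3-labelled cRNA and read on a one-colour Agilent array. The 4 arrays shared 1 slide and 1 scan, which leaves no slide or scan batch to test. The 75th percentile of the processed signal over non-control spots ranged from 958 on replicate 4 to 1489 on replicate 2, and no spot was saturated. A level here is log2 of a probe's processed signal minus log2 of its array's 75th percentile, and values are given in the order of replicates 1 to 4. Levels of different probes depend on the probe as well as on the RNA and are not ranked. A gene was called detected when at least 1 of its probes was well above background on all 4 arrays, and its level is that of its brightest detected probe. Of 9 macrophage markers, 7 were detected, among them Cd68, a lysosomal glycoprotein (4.74 ± 0.055, SD, n = 4), and Lyz2, lysozyme (6.67 ± 0.062); Marco and Adgre1 were not. Of markers of other cell types, 0 of 6 epithelial ones were detected. Detected on all arrays were 2 of 6 for plasma cells (Prdm1 and Irf4), 2 of 4 for B cells (Cd79a and Pax5), 2 of 5 for fibroblasts (Col1a2 and Dcn), 2 of 4 for T cells (Cd3d and Lck) and 2 of 4 for neutrophils (Mpo and Camp). With 4 arrays, each SD is itself imprecise.

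All 35 members were detected on all 4 arrays, whereas 54.9% of all genes with a symbol were. Of their 45 probes, 40 were detected on every array, beside 52.1% of the probes of all such genes. Requiring every probe of a gene to be detected left 31 of the 35 and 47.2% of all genes.

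**Figure D1:**
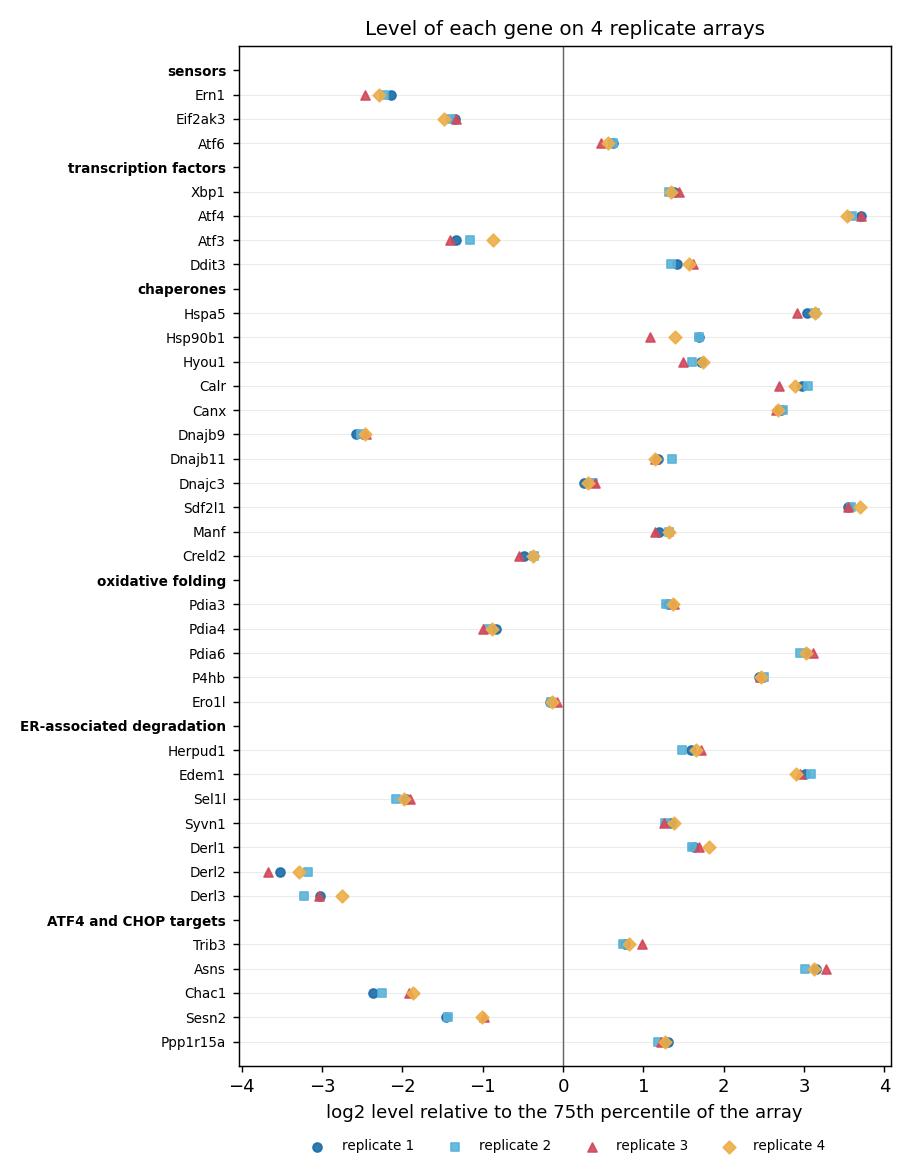
Level of each of the 35 genes (log2 relative to the 75th percentile of its array, horizontal axis) on the 4 arrays, one point per replicate, grouped by role. The 4 points of most genes lie close together, and those of Hsp90b1, Atf3, Chac1, Sesn2, Derl2 and Derl3 lie farther apart; positions of different genes are not comparable because each has its own probe.

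Promoter letters were no part of how the members were chosen. RefSeq promoters of GRCr8, running from 250 bases before to 50 bases after each gene's start, were held for 27 of the 35 members; Ern1, Atf6, Atf3, Manf, Pdia3, Pdia6, Ero1l and Derl1 had none. The ER stress response element (ERSE) was searched as CCAAT and CCACG with any 9 bases between them and the ERSE-II as ATTGG and CCACG with any 1 base between them, on both strands, and neither overlapped the other in a member. ERSE letters stood in 8 members, among them Hspa5, Hsp90b1, Calr, Dnajc3, Creld2, Derl3 and Xbp1, and in 0.0765% of 27457 promoters (21 genes). ERSE-II letters stood in 3, Hyou1, Dnajb11 and Herpud1, and in 0.0619% of promoters (17 genes). One or the other was present in 8 of 10 chaperones with a promoter, 1 of 3 transcription factors, 2 of 6 degradation genes, 0 of 5 ATF4 and CHOP targets, 0 of 2 oxidative folding genes and 0 of 1 sensors. The full set of holders was 38 genes, of which 27 were not members. Of those 27, 19 had a symbol on the array and 14 were detected. The element is the classical feature by which these genes are known as targets of ATF6 and XBP1, so its presence here describes the letters only and not a site in use.

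The 250 bases upstream of the Hspa5 start are shown because this promoter is the textbook case, on the plus strand of GRCr8 at chr3:38452766-38453015. Capitals mark the exact match to the ERSE letters. Near matches that differ in a letter were not searched and are not marked, so copies of that kind are not counted here.
Hspa5: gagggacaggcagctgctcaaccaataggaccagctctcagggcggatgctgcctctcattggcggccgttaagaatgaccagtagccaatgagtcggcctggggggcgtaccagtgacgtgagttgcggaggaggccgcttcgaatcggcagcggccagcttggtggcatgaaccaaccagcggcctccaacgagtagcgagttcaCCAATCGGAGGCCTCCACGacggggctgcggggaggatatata
The stretches below put 10 flanking bases on each side of the ERSE or its reverse complement in other members, so that the fixed ends and the variable middle can be compared. They come from chr7:23012441-23012479 and chr7:23012337-23012375 for Hsp90b1 (minus strand), chr19:40213125-40213163 for Calr (plus), chr15:102432524-102432562 for Dnajc3 (plus), chr7:121789229-121789267 for Creld2 (plus), chr20:12766591-12766629 for Derl3 (minus) and chr14:84604548-84604586 for Xbp1 (plus).
Hsp90b1, far copy: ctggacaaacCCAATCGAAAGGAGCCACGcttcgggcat
Hsp90b1, near copy: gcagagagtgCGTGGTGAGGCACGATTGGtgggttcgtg
Calr: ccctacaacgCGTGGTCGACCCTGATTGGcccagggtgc
Dnajc3: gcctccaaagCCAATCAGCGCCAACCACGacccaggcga
Creld2: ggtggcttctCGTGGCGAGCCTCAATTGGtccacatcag
Derl3: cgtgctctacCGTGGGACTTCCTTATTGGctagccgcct
Xbp1: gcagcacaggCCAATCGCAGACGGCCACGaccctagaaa
The exact copies began between 43 bases (Hspa5) and 232 bases (Calr) upstream of the start, and Hsp90b1 alone among members held 2 exact copies.

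ERSE-II copies, in capitals with the same flanks, are shown for the 3 members that held one. They lie at chr8:53602684-53602714 and chr8:53602784-53602814 for Hyou1 (plus strand), chr11:91672790-91672820 for Dnajb11 (minus) and chr19:10614811-10614841 for Herpud1 (minus).
Hyou1, far copy: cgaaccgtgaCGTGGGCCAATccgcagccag
Hyou1, near copy: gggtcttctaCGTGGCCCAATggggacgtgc
Dnajb11: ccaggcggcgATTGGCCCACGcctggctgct
Herpud1: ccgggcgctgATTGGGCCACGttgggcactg
Hyou1 held 2 copies, and its far copy overlapped the only UPRE core (TGACGTGG, a word bound by XBP1) found in a member, which 0.681% of promoters hold. The core of the C/EBP-ATF response element (CARE), TGATGNAA, through which ATF4 acts, stood in 3 members, Chac1, Trib3 and Herpud1, and in 4.16% of promoters. Each of those 3 copies read in the opposite direction.
Chac1: ttctccgccgTTGCATCActcctgctag
Trib3: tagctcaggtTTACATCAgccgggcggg
Herpud1: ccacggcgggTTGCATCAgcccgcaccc
These lie at chr3:126795954-126795981 (plus strand), chr3:161275537-161275564 (minus) and chr19:10614874-10614901 (minus). Herpud1, which ties the degradation complex of the ER membrane together, was the one member with both an ERSE-II and a CARE core.

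The sensors came first in the order of the pathway. Ern1, the kinase and endoribonuclease that splices Xbp1, read -2.14, -2.23, -2.46 and -2.29 (-2.28 ± 0.14, SD, n = 4). Eif2ak3, the eIF2α kinase PERK, read -1.34, -1.39, -1.33 and -1.48 (-1.38 ± 0.071). Atf6, the membrane-bound transcription factor, read 0.62, 0.62, 0.47 and 0.56 (0.57 ± 0.069). Ern1 and Atf6 were lowest on replicate 3, and Eif2ak3 on replicate 4. Ern1 and Eif2ak3 each had a second probe that passed on 3 of 4 arrays only, so detection of both rested on 1 probe. The Ern1 probe so used shares 31 of its 60 bases with a probe of another name. The second Atf6 probe, 3991 bases from the first on rn4, was detected on every array at 0.36, 0.31, 0.17 and 0.14, and both Atf6 probes were lower on replicates 3 and 4 than on 1 and 2.

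Among the transcription factors, Xbp1, the target of IRE1 splicing, read 1.38, 1.32, 1.45 and 1.34 (1.37 ± 0.054). Atf4, whose translation rises when eIF2α is phosphorylated, read 3.71, 3.59, 3.70 and 3.54 (3.64 ± 0.083). Ddit3, which encodes the pro-death factor CHOP, read 1.42, 1.35, 1.62 and 1.56 (1.49 ± 0.12). RNA of all 3 was therefore above background in every replicate, and the highest array exceeded the lowest by 1.09-fold for Xbp1, 1.12-fold for Atf4 and 1.21-fold for Ddit3. Atf3, an immediate stress-induced repressor, read -1.34, -1.15, -1.41 and -0.87 (-1.19 ± 0.24). Its spread of 1.46-fold came with replicate 4 as the highest array, and both of its spots gave replicate 4 the highest and replicate 3 the lowest value.

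The chaperones were the largest role. Hspa5, the ER Hsp70 BiP that holds the sensors inactive, read 3.04, 3.13, 2.91 and 3.14 (3.06 ± 0.11). Hsp90b1, the ER Hsp90 GRP94, read 1.70, 1.69, 1.08 and 1.40 (1.47 ± 0.29). Calr, the calcium-binding lectin calreticulin, read 2.97, 3.04, 2.69 and 2.89 (2.90 ± 0.15). Each of these was lowest on replicate 3, by 1.53-fold from highest to lowest array for Hsp90b1, 1.28-fold for Calr and 1.17-fold for Hspa5.

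Hyou1, the nucleotide exchange factor GRP170, read 1.72, 1.61, 1.49 and 1.75 (1.64 ± 0.12). Canx, the membrane lectin calnexin, read 2.72, 2.74, 2.66 and 2.68 (2.70 ± 0.036). Sdf2l1, a partner of the ER DnaJ proteins, read 3.55, 3.59, 3.54 and 3.70 (3.60 ± 0.071). Replicate 3 was the lowest array for these genes too, although for Canx and Sdf2l1 it lay 1.06-fold and 1.11-fold below the highest array. Manf, a secreted survival factor, read 1.19, 1.32, 1.15 and 1.31 (1.24 ± 0.088). Creld2, a secreted ER stress protein, read -0.49, -0.36, -0.55 and -0.37 (-0.44 ± 0.091). Both were higher on replicates 2 and 4 than on 1 and 3.

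The J-domain co-chaperones of BiP did not share an order. Dnajb9 (ERdj4) read -2.57, -2.52, -2.46 and -2.46 (-2.50 ± 0.056) and Dnajc3 (P58IPK), which also inhibits PERK, read 0.26, 0.37, 0.40 and 0.31 (0.34 ± 0.061). These were the only chaperones not lowest on replicate 3; both were lowest on replicate 1. Dnajb11 (ERdj3) read 1.18, 1.36, 1.14 and 1.15 (1.21 ± 0.10), with replicate 2 apart from 3 arrays that lay close together. Its gap to the nearest array over its whole range was 0.8291, just past the critical value of Dixon's test, and it was the 1 such gene among the 35, beside 5.12% of all detected genes.

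The oxidative folding genes had a median SD of 0.050. P4hb, protein disulfide isomerase, read 2.44, 2.50, 2.45 and 2.47 (2.46 ± 0.027), a spread of 1.04-fold. Pdia3 (ERp57), which works with the lectins, read 1.31, 1.28, 1.39 and 1.37 (1.34 ± 0.050), and Pdia6 read 3.03, 2.95, 3.11 and 3.02 (3.03 ± 0.062). Pdia4 (ERp72) read -0.83, -0.94, -0.997 and -0.88 (-0.91 ± 0.073). Ero1l, the oxidase that recharges the isomerases, read -0.16, -0.15, -0.08 and -0.14 (-0.13 ± 0.038). Pdia3, Pdia6 and Ero1l were highest on replicate 3 and Pdia4 was lowest there, so the 5 genes shared no order.

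In ER-associated degradation, Herpud1 read 1.60, 1.48, 1.72 and 1.66 (1.61 ± 0.10). Edem1, which directs mannose-trimmed glycoproteins to degradation, read 3.02, 3.08, 2.96 and 2.90 (2.99 ± 0.080). Sel1l and Syvn1, the adaptor and the ubiquitin ligase (HRD1) of the same complex, read -1.96, -2.08, -1.90 and -1.98 (-1.98 ± 0.073) and 1.34, 1.27, 1.26 and 1.38 (1.31 ± 0.056). Sel1l was highest on replicate 3 and Syvn1 lowest there, so the arrays stood in different orders for adaptor and ligase. The 3 derlins help pull substrates out of the ER. Derl1 read 1.63, 1.61, 1.69 and 1.82 (1.69 ± 0.095), Derl2 -3.53, -3.18, -3.67 and -3.28 (-3.41 ± 0.22), and Derl3 -3.03, -3.23, -3.04 and -2.75 (-3.01 ± 0.20). Derl1 and Derl3 were highest on replicate 4, and Derl2 on replicate 2. Derl2 and Derl3 had a larger SD than the other 5 degradation genes. At their signal the prior SD of limma, described below, was itself 0.18 and 0.17. Their SDs were 1.23 and 1.19 times that prior.

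Several probes of one gene bear on how far a single probe can be trusted. Derl3 had 4, and these are shown as one case (60 bases each, minus strand of chromosome 20 on rn4). Capitals mark a run of letters that the probe shares, in stretches of at least 20 bases on either strand, with a probe of another name or a promoter.
A_44_P1115812: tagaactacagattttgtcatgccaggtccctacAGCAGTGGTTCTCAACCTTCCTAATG
A_42_P536741: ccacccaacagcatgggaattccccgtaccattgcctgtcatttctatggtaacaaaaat
A_44_P1115807: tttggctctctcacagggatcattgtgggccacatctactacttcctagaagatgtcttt
A_44_P548559: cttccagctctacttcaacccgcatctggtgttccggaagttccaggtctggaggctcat
The first, at chr20:13151761-13151820, gave the level above; its last 26 bases recur in 1 probe of another name and 1 promoter. The second, at chr20:13163303-13163362, was detected at -4.89, -4.80, -4.77 and -4.48 and was also highest on replicate 4. The other two, at chr20:13164178-13164237 and chr20:13165457-13165598, were detected on 0 arrays. Detection of Derl3 thus held for 2 of 4 probes, 1 of them free of a shared run, and the part of the shared run in the signal was not tested. Of the 45 member probes, 5 shared such a run, the others being the probes that gave the levels of Ern1 and Edem1, and 1 probe each of Eif2ak3 and Atf6 that did not.

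Elsewhere the probes of a gene differed as well. Canx had a probe 553 bases from the one used that was detected on 2 of 4 arrays (-5.81, -5.71, -7.96 and -5.80). Both Syvn1 probes were highest on replicate 4, whereas the 3 Edem1 probes were highest on replicates 2, 1 and 3 in turn. All of these were detected on 4 arrays, yet their mean levels lay far apart. For Edem1 they were 2.99 (the probe used), -2.51 and -0.60, and for Syvn1 1.31 (the probe used) and -4.74. The level given for each gene is thus that of its brightest probe only. A second Asns probe, tied to the gene by its accession alone and not counted among the 45, was highest on replicate 1 (1.23, 1.02, 1.04 and 0.99). An order of arrays read from 1 probe therefore did not always recur in another probe of the same gene.

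The ATF4 and CHOP targets closed the pathway. Trib3, a pseudokinase that restrains ATF4 and CHOP, read 0.77, 0.75, 0.98 and 0.83 (0.83 ± 0.10). Asns, asparagine synthetase, read 3.15, 3.02, 3.27 and 3.12 (3.14 ± 0.11). Ppp1r15a (GADD34), which brings a phosphatase to eIF2α, read 1.31, 1.18, 1.22 and 1.27 (1.24 ± 0.058). Chac1, which degrades glutathione, read -2.36, -2.26, -1.92 and -1.86 (-2.10 ± 0.25), and Sesn2, a leucine sensor that restrains mTORC1, read -1.45, -1.44, -0.98 and -1.01 (-1.22 ± 0.26). For Chac1 and Sesn2 the arrays fell into 2 pairs, with replicates 3 and 4 above 1 and 2, and the highest array exceeded the lowest by 1.41-fold and 1.39-fold. Trib3 and Asns were highest on replicate 3, although the second Asns probe was highest on replicate 1. None of the 5 targets was lowest on replicate 3, beside 27.9% of all detected genes.

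**Figure D2:**
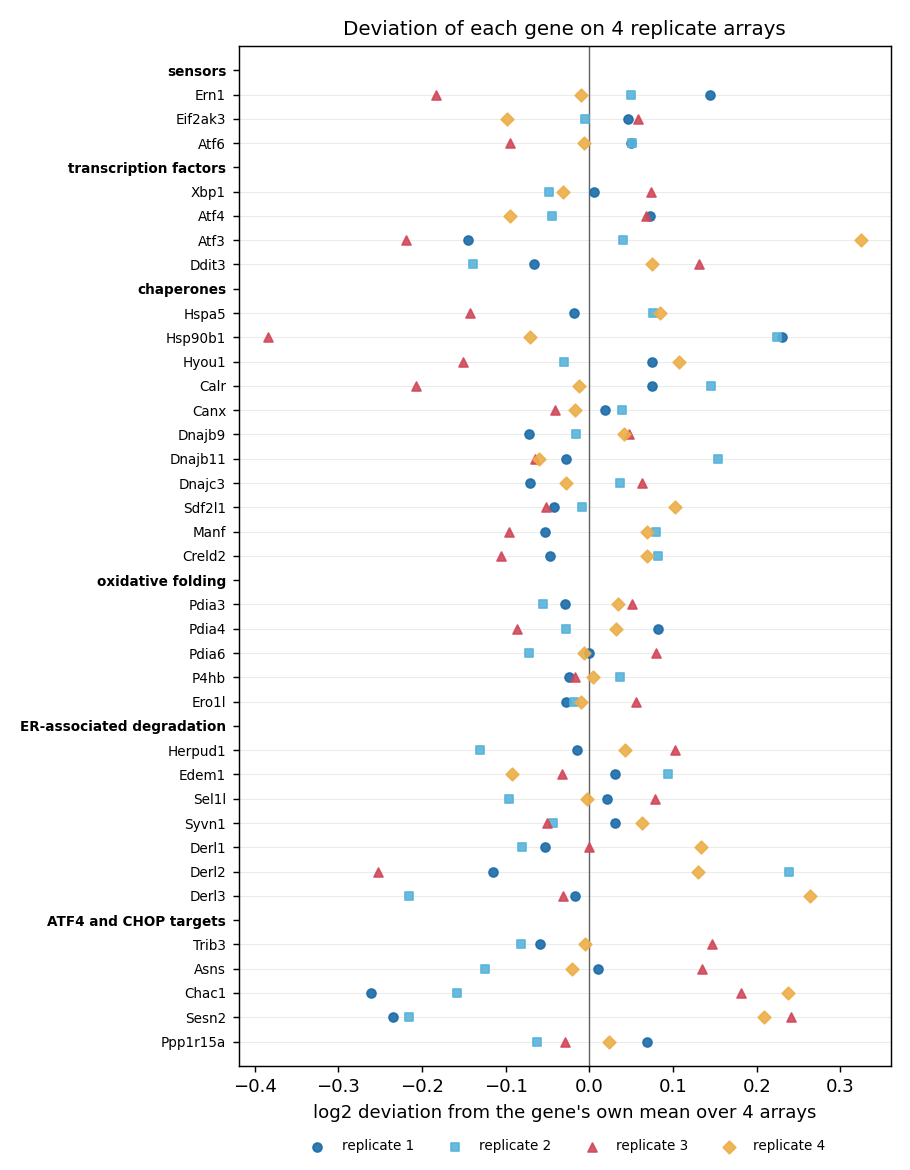
Deviation of each gene from its own mean over the 4 arrays (log2 units, horizontal axis), one point per replicate. Replicate 3 is the leftmost point for 9 of 11 chaperones and for none of the 5 ATF4 and CHOP targets, beside 27.9% of all detected genes.

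The variance of each probe between arrays was tested with limma against a prior that follows signal. After Benjamini-Hochberg adjustment over 19400 detected probes, 0 of the 35 genes passed 0.05, beside 0.145% of all detected genes. At an unadjusted p under 0.05, 2 of the 35 passed, beside 5.67% of detected genes. These were Hsp90b1 (1.53-fold from highest to lowest array, adjusted p = 0.38 by limma) and Sesn2 (1.39-fold, adjusted p = 0.74 by limma). With no filter on dim probes the adjusted p of Hsp90b1 was 0.00413 by limma and that gene passed. Under that setting 1122 of the 45598 probes on the array passed in all, beside 1 of the 35 members. Over the alternatives run, the lowest adjusted p among the members ranged from 0.00413 to 0.96 by limma.

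The median SD over the 35 was 0.088 on the log2 scale (0.027 for P4hb to 0.29 for Hsp90b1), beside 0.112 over all 10351 detected genes. SD exceeded that value in 10 of the 35. From highest to lowest array the median fold was 1.14, beside 1.19 over all detected genes. These comparisons were not matched for signal. Of the 35, 23 had a mean level above the 75th percentile, whereas the median detected probe lay at -1.58, -1.58, -1.60 and -1.57. The prior SD of limma was 0.142 at the level of Ern1 (-2.28) and 0.096 at that of Xbp1 (1.37). A smaller SD than that of all detected genes therefore does not by itself set the members apart.

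**Figure D3:**
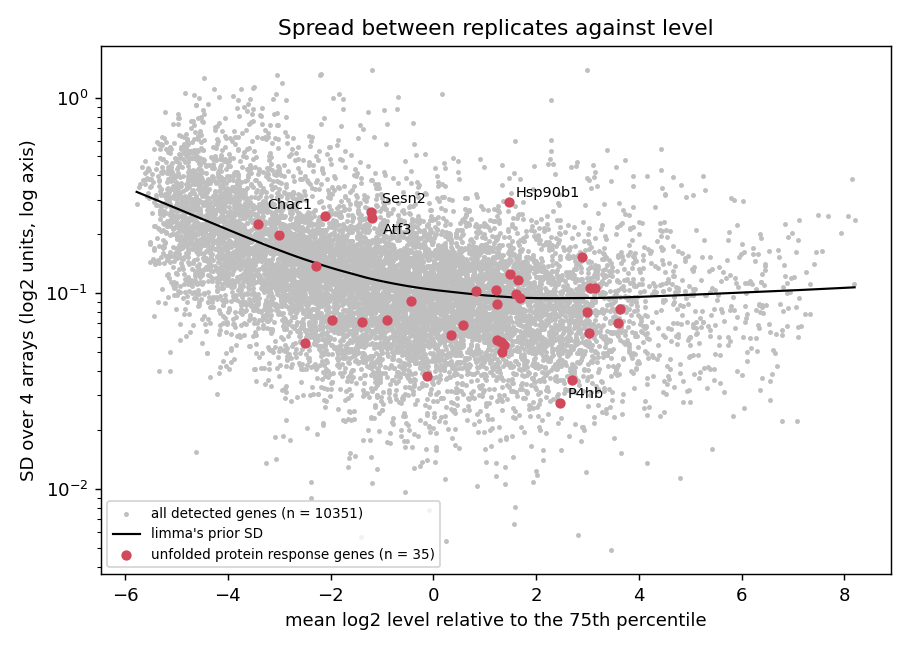
SD over 4 arrays (log2 units, log axis) against mean level (log2 relative to the 75th percentile) for 10351 detected genes in grey and the 35 unfolded protein response genes in red; the line is the prior SD of limma. Hsp90b1, Sesn2, Atf3 and Chac1 are among the members above the line, and P4hb has the lowest SD of the 35 at 0.027.

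Probes printed on 10 spots gave a measure of error within an array. For Hspa5 the SD between arrays was 9.72 times the mean standard error of its spot mean (0.106 against 0.0109), and for Atf4 7.93 times and for Pdia6 4.44 times. For P4hb and Ero1l it was 1.16 and 1.17 times, so their arrays differed by little more than the error of printing and reading. The median ratio over 1045 such detected probes was 5.04. Hsp90b1 had 2 spots, and both put replicate 3 lowest, at 0.95 and 1.22, against 1.34 and 1.45 on replicate 4. The probe's 60 bases map over 150 bases of rn4 (chr7:23334474-23334623, minus strand), per the file, so they do not form 1 unbroken genomic run. The same holds for the probes of Pdia4, Pdia6 and Ero1l, which map over 1509, 1656 and 1323 bases. Their SDs were 0.073, 0.062 and 0.038. For the Atf3 probe the mapped span was 33 bases. Any part of these spans in the spread between arrays was not tested.
Hsp90b1, probe: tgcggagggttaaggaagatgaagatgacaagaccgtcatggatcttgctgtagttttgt

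Counted over all 35, 5, 9, 13 and 8 genes were highest on replicates 1 to 4, beside 19.8%, 25.4%, 22.7% and 32.1% of all detected genes. Lowest on replicates 1 to 4 were 6, 11, 15 and 3, beside 23.7%, 20.2%, 27.9% and 28.2%. Averaged by role, deviations from each gene's own mean showed where genes of one role lay together. The chaperones averaged 0.01, 0.07, -0.10 and 0.03, and 9 of 11 were lowest on replicate 3, where 27.9% of all detected genes were lowest. The ATF4 and CHOP targets averaged -0.10, -0.13, 0.13 and 0.09, and 3 of 5 were highest on replicate 3, beside 22.7% of all detected genes. Asns entered by its brighter probe, whereas its second probe was highest on replicate 1. Without Sesn2 and Chac1 the other targets averaged 0.01, -0.09, 0.08 and 0.00, and the range fell from 0.26 to 0.17. Sensors averaged 0.08, 0.03, -0.07 and -0.04. For transcription factors the means were -0.03, -0.05, 0.01 and 0.07, and for oxidative folding genes 0.00, -0.03, 0.02 and 0.01. The degradation genes averaged -0.02, -0.03, -0.03 and 0.08, with replicate 4 apart (gap over range 0.848). On that array 3 of the 7 were highest, beside 32.1% of all detected genes. The derlins lay 0.13 (Derl1), 0.13 (Derl2) and 0.26 (Derl3) above their own means there, and Edem1 was at its lowest (-0.09). All 35 together averaged -0.01, -0.01, -0.02 and 0.04, close to the -0.01, 0.00, -0.02 and 0.03 of all detected genes. With this scaling the role range was 0.26 in the targets and 0.04 in oxidative folding; with spike-in scaling that order turned, to 0.807 and 0.980.

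**Figure D4:**
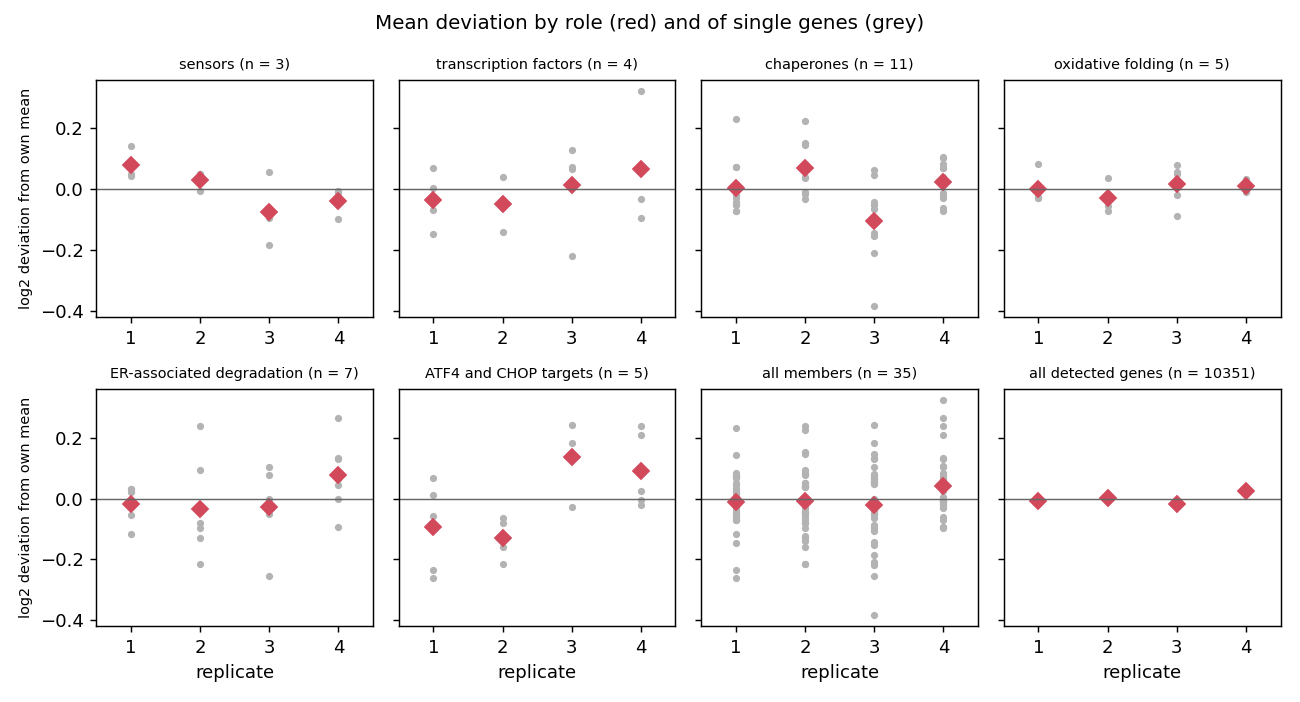
Deviation from the gene's own mean (log2 units) on replicates 1 to 4 for each role; red diamonds are role means and grey points single genes, and the last panel gives the mean of all detected genes. Chaperones dip on replicate 3 (-0.10) and ATF4 and CHOP targets average 0.13 and 0.09 on replicates 3 and 4; without Sesn2 and Chac1 the other 3 targets average 0.08 and 0.00 there.

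On replicate 3 the chaperone mean was below 0 and the target mean above 0. The difference between the means does not depend on a factor that scales a whole array, whereas the side of 0 does. Target mean minus chaperone mean was -0.10, -0.20, 0.24 and 0.06, a range of 0.44 or 1.35-fold. Without Hsp90b1 the range was 0.39, and without Sesn2 and Chac1 0.35, with replicate 3 highest and replicate 2 lowest each time. These roles were compared after their values had been seen, the 4 arrays are 1 group, and no test was made. Macrophage markers averaged 0.01, 0.06, -0.13 and 0.06 over the 7 detected, with 3 of 7 lowest on replicate 3. Itgam, an integrin subunit, weighed most in that mean (-0.52, 0.34, -0.69 and 0.87 from its own mean), and without it the other 6 averaged 0.10, 0.01, -0.03 and -0.07. Their part in the chaperone values was not tested. With arrays scaled to spike-in probes instead, both roles were below 0 on replicate 3 (-0.30 for chaperones and -0.06 for targets) and lowest on replicate 4. The mean log2 spike-in signal relative to the 75th percentile was 1.86, 1.87, 2.46 and 2.85.

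Members with an ERSE or ERSE-II were lowest on replicate 3 in 7 of 11 cases. Members whose promoter held neither were lowest there in 4 of 16, members without a promoter sequence in 4 of 8, and the 14 detected non-members with an element in 4 of 14, beside 27.9% of all detected genes. All 7 cases were among the 8 chaperones with an element. The 3 holders outside that role, Xbp1, Derl3 and Herpud1, were lowest on replicate 2. Of the other 3 chaperones, Sdf2l1, whose promoter held neither element, and Manf, without a promoter sequence, were lowest on replicate 3, and Dnajb9 was not.

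Other genes of the pathway were read from 6 further lists. Of 98 genes, 87 were detected on all arrays (88.8%), beside 54.9% of all genes with a symbol. The variance test (limma) called 0 of the 87, beside 0.145% of all detected genes. All 6 genes of the eIF2 kinase and phosphatase list were detected, among them Eif2ak1 (HRI, 0.72 ± 0.080), Eif2ak2 (PKR, -1.85 ± 0.045) and Eif2ak4 (GCN2, -1.61 ± 0.16). Each of the kinases that share eIF2α with PERK thus had signal in these cells. In stress signalling from the ER, 11 of 14 were detected. Mbtps1, the first protease that cuts ATF6, read 1.06 ± 0.072, and Traf2, an adaptor of IRE1, -1.31 ± 0.10. Mbtps2, the second protease, had 2 probes, of which 0 passed on all arrays and the brighter passed on 0 arrays. Ern2, the epithelial IRE1 isoform, and Creb3l3 had 1 probe each, detected on 0 arrays.

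The amino acid response list held 16 detected genes of 20, with Atf5 at 2.08 ± 0.11, Cebpb at 4.05 ± 0.11 and Cebpg, a partner of ATF4, at 0.17 ± 0.079. Vldlr, Pmaip1, Fgf21 and Stc2 were not detected. Its mean deviations of 0.04, 0.02, -0.02 and -0.04 did not share the order of the 5 ATF4 and CHOP targets. Of ER folding enzymes, 21 of 25 were detected, including Txndc5 (-0.39 ± 0.14) and Erp29 (2.00 ± 0.080). By the brightest probe of each, Pdia5 and Pdia2 were detected on 0 arrays, Clgn on 1 and Fkbp14 on 3. Their mean deviations (0.00, 0.03, -0.02 and -0.02) stayed within a range of 0.04, and 4 of the 21 were lowest on replicate 3. The degradation machinery had 7 of 16 lowest there (mean -0.04) and stress signalling from the ER 4 of 11 (mean -0.05), and replicate 3 was the lowest array of both lists. The amino acid response had 4 of 16 lowest there (mean -0.02) and the translocon and signal peptidase 4 of 17 (mean -0.005). The eIF2 kinase and phosphatase list had 2 of 6 (mean 0.03). Of all detected genes, 27.9% were lowest on that array. All 16 genes of the degradation machinery were detected, such as the lectins Os9 (0.92 ± 0.046) and Erlec1 (-1.42 ± 0.089) and the mannosidase-like Edem2 (-1.42 ± 0.16). So were all 17 of the translocon and signal peptidase, with Sec61a1 at 3.54 ± 0.10, Sec61b at 0.95 ± 0.11 and Sec61g at 2.99 ± 0.11.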

How the data were processed

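Total RNA of 4 samples of 1 group was measured on one-colour arrays. Per the submitters' processing notes, the scanner software was Agilent Feature Extraction 11.0.1.1. The deposited intensity per spot is the processed signal, which, per the file headers, was background-corrected in each array without scaling arrays to each other. Non-uniform and population outlier spots were left out, log2 intensity was scaled to each array's 75th percentile, and spots of a probe were averaged. Detection required more than 0.5 of a probe's spots to be well above background. Probes were named from the files and, for 22557 of them, by accession in the RefSeq table of GRCr8. Probe coordinates are those of the files (rn4); exon and UTR annotation was not used. The variance test used R 4.3.3 and limma 3.58.1 (robust, trended prior, upper-tail F test, Benjamini-Hochberg at 0.05), checked on simulated data. The increases of SD planted there were larger multiples than the largest ratio of SD to prior SD among the members (3.06, Hsp90b1). Recovery of spreads of that size was therefore not checked. Python 3.11.15, numpy 2.4.6, pandas 2.3.3 and matplotlib 3.10.9 were used. Named genes are all members, the first 3 of each further list, and list genes on the smaller side of detection where 4 or fewer; markers and examples beyond this, Itgam among them, were named after their values were seen. Members and lists were chosen with earlier results of these data known. Protein sequences were planned and not used here, and 1 promoter stretch is not reported here. Alternatives covered detection, background correction, scaling, filters, prior, probe choice and each replicate left out.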

Additional observations from a re-analysis of the deposited data

Results flagged for a closer look

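The level of Dnajb11 stood apart on 1 array: replicate 2 read 1.36 and the others 1.14 to 1.18, a gap of 0.8291 of the whole range, just past the critical value for 4 samples. The mean deviation of the 7 ER-associated degradation genes stood apart on replicate 4 (0.08, against -0.03 to -0.02; 3 of 7 genes highest there), with a gap of 0.848 of the range. Chance gives such a gap in about 1 in 20 groups, and 5.12% of all detected genes showed one. Without replicate 4 the range of the degradation genes was 0.0167.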

How the results depend on the processing

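No paired analysis was possible because all 4 samples are of 1 group. All 35 members were detected under every alternative except the one requiring every probe (31). The variance test called 0 members under every alternative except no filter on dim probes (1, Hsp90b1, beside 1122 of the 45598 probes on the array). Leaving out each replicate gave 35 detected, 0 called, and a median SD from 0.0715 to 0.0988. The range of role means then ran from 0.105 to 0.154 for sensors, 0.0614 to 0.117 for transcription factors, 0.0648 (without replicate 3) to 0.174 for chaperones, 0.0164 (without replicate 2) to 0.0439 for oxidative folding, 0.0167 (without replicate 4) to 0.110 for degradation and 0.218 to 0.264 for targets. Normexp gave 0.108 for sensors, and the median of members 0.0782 for oxidative folding. Spike-in scaling, chosen after seeing the data, gave a median SD of 0.481 and ranges of 1.11 for sensors, 0.889 for transcription factors, 1.03 for chaperones, 0.980 for oxidative folding, 0.897 for degradation and 0.807 for targets. The level moved by more than its SD in 22 of 35 members under normexp and in 35 with the median of detected probes as scale. That median lay between -1.60 and -1.57 on every array, so the second count follows from the change of zero point alone. Levels hold only for the stated scaling. The cause of the other changes was not tested. With 4 arrays, signal near background limits the dimmest probes most.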
